A study of Mus musculus with 24 samples.

Results

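The genes described here encode the receptors for acetylcholine, serotonin, noradrenaline and adrenaline, dopamine and histamine. They were taken by the gene symbols that these receptor families carry in the deposited files. The families themselves were chosen with earlier results of these data known. This gave 52 genes of 38215: 16 nicotinic acetylcholine receptor subunits, 5 muscarinic acetylcholine receptors, 2 subunits of the serotonin-gated channel, 12 serotonin receptors coupled to G proteins, 9 adrenergic, 4 dopamine and 4 histamine receptors. The D1 dopamine receptor is listed under its older symbol Drd1a and is not among them. RNA was measured by sequencing in dorsal root ganglia (DRG), where the sensory neurons that send axons into the sciatic nerve have their somata. The title of the series concerns regrowth of central axons in CAST/Ei mice. Ganglia were taken from uninjured mice labelled Naive and from mice whose sciatic nerve had been crushed 5 days earlier. The strains were labelled C57, CAST and DBA, with 4 libraries in each of the 6 groups and 24 in all. No transgene or further agent is named for any group, and age and sex are not given in the labels. The treatment field speaks of sham injury where the sample names say naive, so whether the controls had a sham operation is not settled. The series design calls the libraries of a group biological quadruplicates, and whether ganglia of several mice were pooled is not stated. Other strains counted in the design were not analysed here.

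Nicotinic receptors are channels built from several subunits that open when acetylcholine binds. The muscle type uses Chrna1, Chrnb1, Chrnd and Chrng or Chrne, and neuronal types combine alpha and beta subunits such as Chrna3 with Chrnb4 in autonomic ganglia, or form from Chrna7 alone. Htr3a and Htr3b encode the only serotonin receptor subunits that are channels. All other receptors described here act through G proteins. In sensory neurons these families are known for tuning the release of transmitter and the sensitivity of pain fibres.

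Recovered library totals ran from 51.39 to 145.48 M reads (median 107.06 M), lowest in injured C57 replicate 3. Levels are given as RPM, the reads of a gene per 1000000 reads in genes. They are not divided by transcript length, so levels of different genes are not compared. The tissue label was checked against markers. The 10 neuron markers together stood at 8670 to 10800 RPM in every library. Group medians of this sum were 9500, 9030 and 9160 in naive and 10300, 9410 and 9630 in injured C57, CAST and DBA. Of the 10, 5, 7 and 7 were lower and 2 were higher after crush in C57, CAST and DBA. Of all genes tested, 21%, 21.8% and 24.4% were lower and 19.7%, 26.3% and 27.2% higher. All 9 macrophage markers were higher after crush in each strain, with group medians of their summed level of 151, 142 and 150 in naive and 334, 391 and 374 in injured C57, CAST and DBA. In whole ganglia, fewer cells of a type and less RNA per cell cannot be told apart. The part of these shifts in the results below was not tested. Naive DBA replicate 3 held the most skeletal muscle RNA, with a summed level of 10 muscle markers of 415 against a group median of 85.2. Results were also computed without this library, the library of lowest depth and naive C57 replicate 1, which had stood apart on a principal component in an earlier analysis, all left out together.

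After crush, more receptor genes fell than rose, in every strain. Of the 52 genes, 49 had at least 10 reads in at least 4 libraries and were tested, whereas Chrnd, Chrng and Hrh4 were not. In C57, 23 of the 49 fell and 11 rose, where 21% and 19.7% of all 27276 tested genes did (40.8% in either direction). In CAST 22 fell and 10 rose, against 21.8% and 26.3% of all genes (48.1% in either direction). In DBA 25 fell and 14 rose, against 24.4% and 27.2% (51.6% in either direction). A gene was called changed at an adjusted p under 0.05 in limma. Without the 3 libraries just named, 33, 33 and 37 receptor genes were called in C57, CAST and DBA. The share of all genes was not computed for that fit. The median log2 change of the 49 genes was −0.32, −0.20 and −0.31 in the order C57, CAST, DBA, and that of all genes −0.003, 0.028 and 0.024.

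In all 3 strains, 18 receptor genes fell, or 36.7% of those tested, where 14.4% of all genes did. They were Chrna4, Chrna6, Chrna7, Chrna10, Chrnb3, Htr3a, Htr3b, Chrm1, Chrm2, Htr1a, Htr2c, Htr4, Htr5a, Htr5b, Htr7, Adra2c, Hrh1 and Hrh3. In all 3 strains, 5 rose, namely Chrna1, Chrna5, Htr6, Adra2a and Drd2, which is 10.2% of the receptor genes against 14.4% of all genes. The map of changes by gene and strain shows that Htr3b, Htr3a and Chrna6 fell furthest of the 18 in DBA, and that Htr3b, Chrna10 and Chrm2 did in C57.

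**Figure D1:**
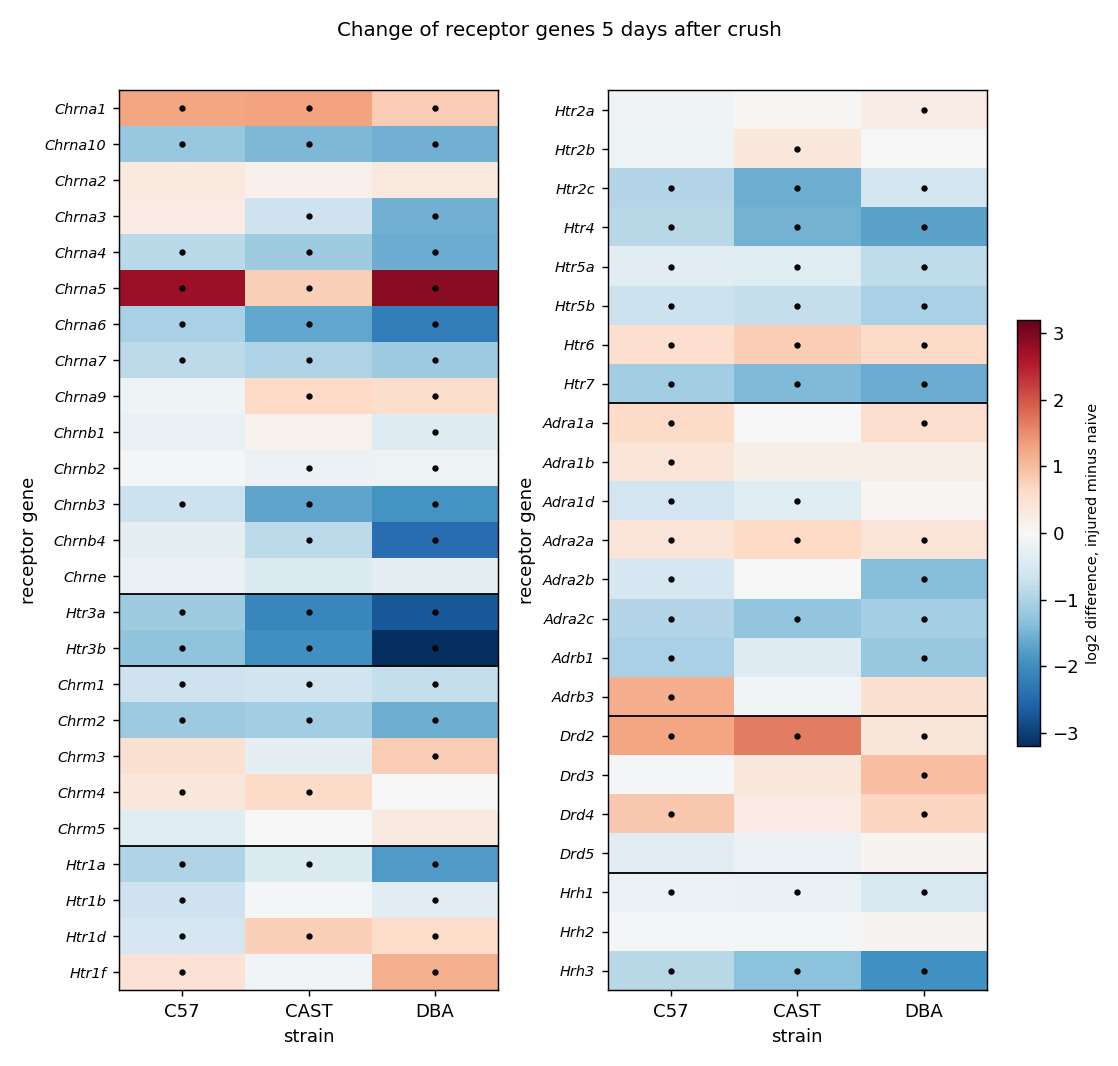
Log2 difference between injured and naive ganglia for 48 of the 49 tested receptor genes (rows, by family) in C57, CAST and DBA (columns). A black dot marks an adjusted p under 0.05 in limma, and lines separate the families. Chrna5 has the largest rise, 2.75 in C57 and 2.90 in DBA, and Htr3b the largest fall, −3.20 in DBA.

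Chrna3, Chrnb4 and Chrna5 lie side by side on mouse chromosome 9 and encode subunits that can join in the same receptor. In mm10 coordinates, Chrna5 spans 54980880 to 55007779 on the plus strand, Chrna3 spans 55010111 to 55026562 on the minus strand and Chrnb4 spans 55028154 to 55048779 on the minus strand. The ends of Chrna5 and Chrna3 are 2331 bases apart, and whether reads were assigned by strand is not given in the sources used here. Chrna5 rose in every strain, whereas Chrna3 fell in CAST and DBA and was not called in C57. The bases upstream of the start sites of Chrna3 and Chrna5 are therefore shown, with those of Htr3b, the gene with the largest fall. They are the 250 bases before each RefSeq start site (GRCm38.p6, the assembly named mm10), read 5′ to 3′ on the strand of the gene, with GC boxes (GGGCGG, or CCGCCC on the other strand) in capitals.
Chrna3, minus strand, chr9:55026563-55026812: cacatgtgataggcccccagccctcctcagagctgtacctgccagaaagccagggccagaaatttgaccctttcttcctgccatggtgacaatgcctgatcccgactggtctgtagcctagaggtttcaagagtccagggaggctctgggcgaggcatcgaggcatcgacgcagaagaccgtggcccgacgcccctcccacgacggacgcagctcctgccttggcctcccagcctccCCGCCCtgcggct
Chrna5, first start site, plus strand, chr9:54980630-54980879: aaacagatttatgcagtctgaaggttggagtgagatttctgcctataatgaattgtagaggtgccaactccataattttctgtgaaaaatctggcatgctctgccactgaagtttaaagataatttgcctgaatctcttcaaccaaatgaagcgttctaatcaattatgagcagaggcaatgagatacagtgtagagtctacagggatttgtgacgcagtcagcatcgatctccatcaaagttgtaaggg
Chrna5, second start site, plus strand, chr9:54981238-54981487: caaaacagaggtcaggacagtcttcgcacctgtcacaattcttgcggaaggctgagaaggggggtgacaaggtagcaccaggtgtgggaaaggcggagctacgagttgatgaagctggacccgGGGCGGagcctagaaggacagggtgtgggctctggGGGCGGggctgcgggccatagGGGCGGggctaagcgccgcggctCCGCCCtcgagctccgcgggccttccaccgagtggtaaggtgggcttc
Htr3b, minus strand, chr9:48964991-48965240: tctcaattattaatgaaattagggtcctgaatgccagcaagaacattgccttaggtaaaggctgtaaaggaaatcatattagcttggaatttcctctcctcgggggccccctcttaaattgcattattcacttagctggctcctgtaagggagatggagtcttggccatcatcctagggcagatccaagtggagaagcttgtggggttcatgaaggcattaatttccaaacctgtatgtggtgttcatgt
The second start site of Chrna5 had 4 GC boxes and the start site of Chrna3 had 1, whereas the first start site of Chrna5 and that of Htr3b had 0. A GC box was present in 32.7% of all 32851 upstream windows of this length, and in 24 of the 47 windows that matched 39 of the receptor genes (51.1%). The motif TGANTCA (AP-1) and the motif TGACGTCA (CRE), searched on both strands, had no match in the 4 windows shown. They occurred in 6.75% and 1.55% of all windows, and in 5 and 0 of the 47. A match or its absence describes these letters and no binding.

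Chrna3 and Chrnb4 were highest in CAST and lowest in DBA, before and after crush. Naive CAST ganglia held 96, 101, 91.3 and 87.2 RPM of Chrna3 in replicates 1 to 4. Naive C57 held 14.9, 12.1, 21 and 12.8, and naive DBA held 8.04, 6.82, 10.8 and 6.48. The 3 naive groups did not overlap, and the mean of CAST was 6.18-fold that of C57 and 11.7-fold that of DBA (log2 differences 2.65 and 3.56, SE 0.15, adjusted p = 2.3e-12 and 1.4e-14). After crush Chrna3 stood at 61.4, 64.6, 49.6 and 61.9 in CAST, which is 1.58-fold lower than naive (adjusted p = 0.001). In injured DBA it stood at 2.33, 2.56, 2.58 and 3.28, which is 2.99-fold lower (adjusted p = 1.8e-08). Injured C57 held 17.5, 17, 20 and 16.5, within the range of its naive libraries (log2 difference 0.25, adjusted p = 0.2). Injured CAST had 22.1-fold the mean of injured DBA, the largest ratio between strains among the receptor genes.

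Chrnb4, the beta subunit paired with Chrna3 in autonomic ganglia, had no overlap between naive CAST and the other naive groups. Its naive libraries held 37.6, 37.3, 32.7 and 32.9 RPM in CAST, 9.78, 7.46, 12.6 and 8.21 in C57, and 6.43, 6.44, 7.22 and 5.13 in DBA. After crush they held 20.5, 23.9, 14.4 and 20.2 in CAST, 7.1, 7.35, 7.76 and 7.71 in C57 and 1.05, 1.34, 1.09 and 0.884 in DBA. The fall was 5.79-fold in DBA and 1.78-fold in CAST, and in C57 the log2 difference was −0.32 (adjusted p = 0.089). Injured CAST ganglia had 18.2-fold the Chrnb4 of injured DBA ganglia. The difference of responses between DBA and C57 was −2.12 for Chrnb4 and −1.78 for Chrna3 (adjusted p = 1.9e-07 and 1e-05).

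As both subunits mark autonomic neurons, 7 sympathetic markers were read beside them. Their summed level was 2.43 to 2.83 RPM in naive C57, 3.53 to 4.17 in naive CAST and 3.34 to 4.41 in naive DBA, and after crush 5.01 to 5.91, 7.67 to 10.1 and 13.4 to 14.3. None was at 0 in all libraries of a group, 2 were below the filter on low counts, and of the 5 tested 4, 5 and 4 rose in C57, CAST and DBA. The strain with the lowest Chrnb4 after crush thus had the highest sum of sympathetic markers. Their part in the levels of Chrna3 and Chrnb4 was not tested.

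Chrna5, an accessory subunit that joins channels of Chrna3 and Chrnb4, rose in every strain. Naive C57 ganglia held 0.167, 0.505, 0.45 and 0.455 RPM and injured ones 3.18, 2.83, 3.23 and 3.02, a 7.78-fold rise of the mean (log2 difference 2.75, SE 0.18, adjusted p = 1.5e-12). Naive DBA held 0.284, 0.265, 0.339 and 0.439 and injured DBA 3.44, 2.59, 2.96 and 3.44, a 9.36-fold rise. Naive CAST already held 2.07, 1.72, 1.92 and 1.55, and injured CAST 3.04, 2.73, 3.74 and 3.03, a 1.73-fold rise (log2 difference 0.75, adjusted p = 0.0011). Naive and injured libraries did not overlap in any strain. The response of CAST was smaller than that of C57 (difference of log2 responses −1.99) and of DBA (−2.15, SE 0.26 for both, adjusted p = 3.4e-06 and 8.7e-07). Injured ganglia of the 3 strains differed by 0.01 to 0.02 on the log2 scale, each with an SE of 0.18.

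Chrna6 and Chrnb3 also neighbour each other, on chromosome 8, with Chrnb3 on the plus strand from 27368711 to 27399730 and Chrna6 on the minus strand from 27403212 to 27413944. They encode subunits that combine in receptors of catecholamine neurons. Chrna6 stood at 121, 135, 134 and 137 RPM in naive DBA, 48.7, 44, 42.3 and 44.5 in naive C57 and 56.1, 60, 61.5 and 59.9 in naive CAST. It fell to 23.6, 36.5, 30.3 and 25.4 in DBA, 18.8, 22.8, 22.2 and 23 in C57 and 22.1, 23.2, 12.3 and 18.9 in CAST. The falls were 4.55-fold, 2.07-fold and 3.1-fold (log2 differences −2.20, −1.05 and −1.67, SE 0.14). Before injury DBA exceeded C57 2.94-fold, and after it 1.33-fold. The second of these calls (adjusted p = 0.038) was lost without injured C57 replicate 1, 2 or 3 or injured DBA replicate 2 or 3 (adjusted p of 0.0519 to 0.151). It was also lost when libraries were scaled by upper quartile or by median of ratios.

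Chrnb3 had the same order of naive strains. Its naive libraries held 38.8, 41.1, 40 and 40.4 RPM in DBA, 9.61, 9.52, 11.4 and 9.79 in C57 and 12.1, 14.8, 14 and 14.1 in CAST. Its injured libraries held 7.9, 11.9, 13.1 and 9.78 in DBA, 4.75, 6.89, 7.16 and 6.4 in C57 and 4.65, 6.52, 2.55 and 3.83 in CAST. The falls were 3.75-fold, 1.6-fold and 3.13-fold. Its response differed between DBA and C57 by −1.24 and that of Chrna6 by −1.16 (adjusted p = 0.0057 and 0.00079). The difference of Chrnb3 between CAST and C57, −1.02 (adjusted p = 0.018), was lost without the 3 libraries left out together (adjusted p = 0.0761).

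**Figure D2:**
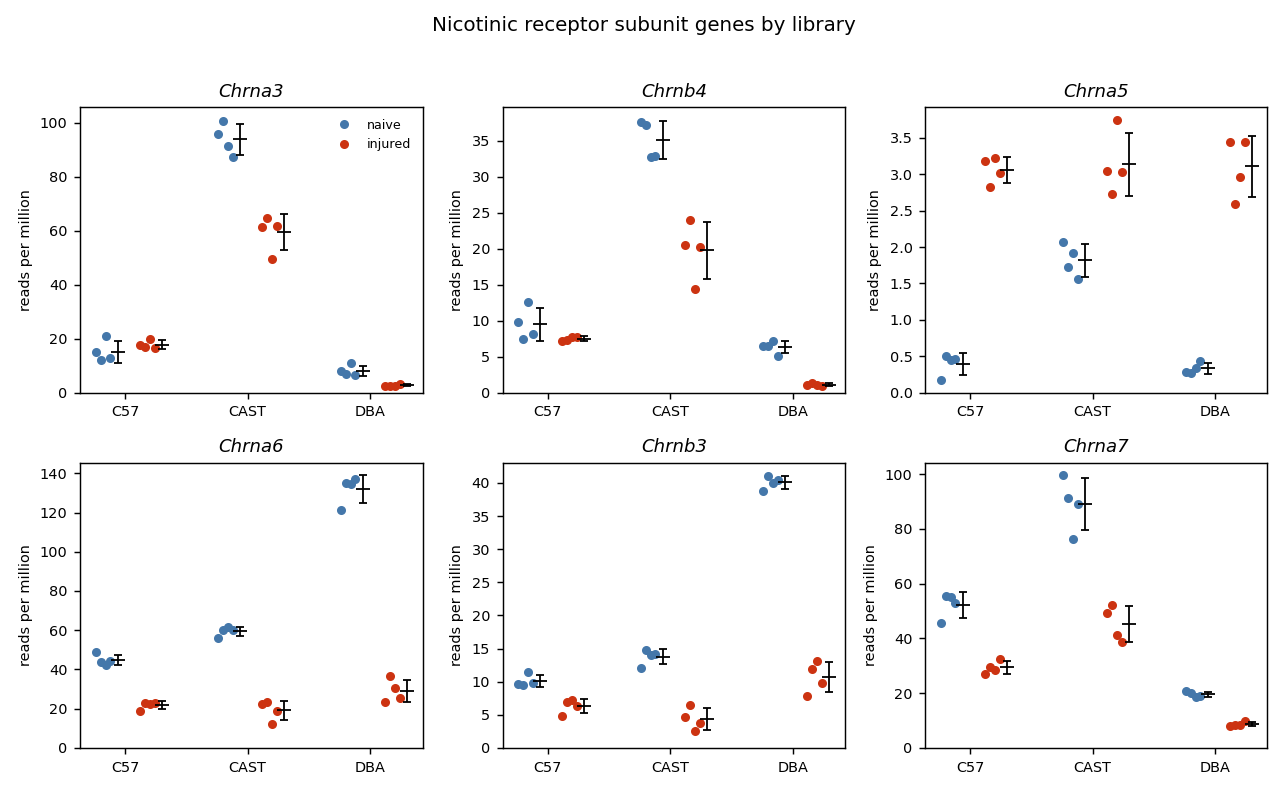
RPM (linear axes from 0) of 6 nicotinic subunit genes in each library, blue for naive and red for injured, with mean and SD of 4 libraries in black. Chrna3 and Chrnb4 are highest in CAST, Chrna6 and Chrnb3 in naive DBA, and Chrna5 reaches 2.59 to 3.74 in all injured libraries from different naive levels.

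Chrna7, which forms channels alone, was highest in CAST and lowest in DBA. Naive libraries held 99.6, 91.5, 76.4 and 89.1 RPM in CAST, 45.5, 55.5, 55.3 and 52.8 in C57 and 20.8, 19.9, 18.7 and 18.8 in DBA, with no overlap. After crush Chrna7 fell 1.97-fold, 1.78-fold and 2.26-fold in CAST, C57 and DBA, to 49.2, 52.1, 41.1 and 38.7, to 27.2, 29.6, 28.4 and 32.4 and to 8.02, 8.44, 8.27 and 9.84. None of the 3 differences of response was called (log2 differences of −0.34 to 0.19, SE 0.13, adjusted p of 0.1 to 0.55), and the order of the strains was the same after crush.

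Chrna4 and Chrnb2 encode the subunits of the main nicotinic receptor of the brain. Chrna4 stood at 5.83, 6.12, 6.05 and 6.8 RPM in naive C57, 2.56, 2.84, 2.48 and 1.6 in naive CAST and 2.92, 1.65, 1.76 and 2.1 in naive DBA. After crush it stood at 2.84, 3.53, 3.42 and 3.67 in C57 mice, 1.09, 1.18, 0.994 and 0.749 in CAST mice and 0.657, 0.514, 0.665 and 0.641 in DBA mice. Its means fell 3.41-fold in DBA, 2.36-fold in CAST and 1.84-fold in C57. The larger fall in DBA than in C57 (−0.72, adjusted p = 0.049) was lost with each of 13 single libraries left out (adjusted p of 0.0519 to 0.128). Chrnb2 stayed between 77.4 and 109 RPM in all 24 libraries. It fell 1.12-fold in DBA and 1.15-fold in CAST, and in C57 the log2 difference was −0.07 (SE 0.04, adjusted p = 0.24). Chrnb2 overlaps Adar on the opposite strand, so reads in their shared bases cannot be told apart without strand. Other receptor genes, among them Htr3a, Chrnb4, Hrh3, Htr1b, Htr5b, Adra1d and Chrm2, also overlap an annotated gene on the opposite strand.

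Chrna10, a subunit best known from hair cells, fell in each strain. Its naive libraries held 1.61, 1.54, 1.2 and 0.966 RPM in C57 mice, 2.85, 2.81, 2.78 and 2.98 in CAST mice and 1.34, 0.747, 1.05 and 0.87 in DBA mice. The injured ones held 0.503, 0.738, 0.37 and 0.484, then 0.942, 0.956, 0.698 and 1.54, and 0.222, 0.266, 0.328 and 0.277, which is 2.54-fold, 2.76-fold and 3.67-fold lower by the means. Chrna10 overlaps Art1 on the opposite strand. Chrna9, its partner in hair cells, had 0 to 18 reads per library. It reached the read minimum of the filter only in injured CAST and injured DBA libraries. The filter thus admitted Chrna9 through the groups in which it was higher. Its levels, 0 to 0.161 RPM, also lie near the 0.1 added before logs were taken. Its rises in CAST and DBA are included in the counts of rises above. With no filter neither rise lost its call, whereas on the scale of log2(FPKM + 1) both did. Its calls in CAST (0.64, adjusted p = 0.013) and DBA (0.57, adjusted p = 0.024) were lost with single libraries left out. These were injured CAST replicate 1 and naive CAST replicate 3 (adjusted p up to 0.0635), and injured DBA replicates 1 and 3 and naive DBA replicates 2 and 3 (up to 0.105). Chrna2 had 3 to 26 reads per library and was not called in any strain.

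Of the muscle-type subunits, Chrna1 alone was called higher after crush. Chrna1 stood at 1.47, 1.43, 1.25 and 1.27 RPM in naive C57 and 3.5, 2.98, 3.68 and 3.33 in injured C57. In CAST it went from 0.394, 0.227, 0.378 and 0.296 to 0.843, 0.844, 1.01 and 0.99, and in DBA from 1.19, 1.37, 0.958 and 1.22 to 2.09, 2.01, 2.12 and 2.31. These rises were 2.49-fold, 2.85-fold and 1.8-fold, without overlap in any strain. Naive CAST was 4.18-fold below naive C57 and 3.66-fold below naive DBA. Chrnb1 fell 1.33-fold in DBA (adjusted p = 0.018), a call lost without the 3 libraries left out together (adjusted p = 0.0585), and was not called in C57 or CAST. Chrne was not called in any strain, and Chrnd and Chrng had 0 to 8 and 0 to 7 reads per library. Of 10 skeletal muscle markers, 6 were lower after crush in DBA, 1 in C57 and 1 in CAST, and 1 was higher, in CAST. Their summed level ran from 46.7 to 75.6, 54.1 to 103 and 52.5 to 415 in naive and from 22 to 32.7, 27.4 to 72.2 and 31.4 to 45.3 in injured C57, CAST and DBA, with lower medians after crush in each strain.

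The 2 serotonin-gated channel subunits, which depolarise neurons when serotonin binds, fell in every strain. Both are on the minus strand of chromosome 9, Htr3a at 48899213 to 48911099 and Htr3b at 48935008 to 48964990, with 23908 bases between them. Htr3a stood at 131, 115, 117 and 117 RPM in naive C57, 49.5, 47.9, 50.1 and 54.1 in naive CAST and 81.8, 76, 79.9 and 80.2 in naive DBA. Injured libraries held 50.4, 58.2, 57.1 and 53 in C57 mice, 12.8, 14.9, 8.36 and 12 in CAST mice and 9.54, 14.7, 11.7 and 12.5 in DBA mice. Naive and injured libraries were far apart in each strain, with falls of 2.19-fold, 4.2-fold and 6.57-fold (log2 differences −1.13, −2.09 and −2.72, SE 0.12, adjusted p = 6.4e-08, 1e-12 and 7e-15). Injured CAST and DBA overlapped (log2 difference −0.03, SE 0.12), and both were below injured C57, by 4.56-fold and 4.52-fold.

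By ratio, Htr3b fell least in C57 and furthest in DBA. It stood at 19.7, 20.4, 19.5 and 19.7 RPM in naive C57, 8.97, 7.15, 7.56 and 7.17 in naive CAST and 7.37, 6.12, 6.44 and 6.22 in naive DBA. Injured ganglia held 7.04, 8.42, 8.46 and 8.52 in C57 mice, 2.08, 2.26, 1.66 and 1.71 in CAST mice and 0.465, 0.727, 0.702 and 0.615 in DBA mice. The falls were 2.44-fold, 4-fold and 10.4-fold (log2 differences −1.28, −1.95 and −3.20, SE 0.11). All 3 pairwise differences of response were called for both subunits. Between DBA and C57 they were −1.59 for Htr3a and −1.92 for Htr3b (adjusted p = 1.7e-06 and 5.2e-09). With log2(FPKM + 1) as the scale the difference of Htr3b between DBA and C57 turned positive (0.13, adjusted p = 0.000257 in limma). All deposited values of Htr3b, 0.0155 to 0.68, lie below the added 1.

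**Figure D3:**
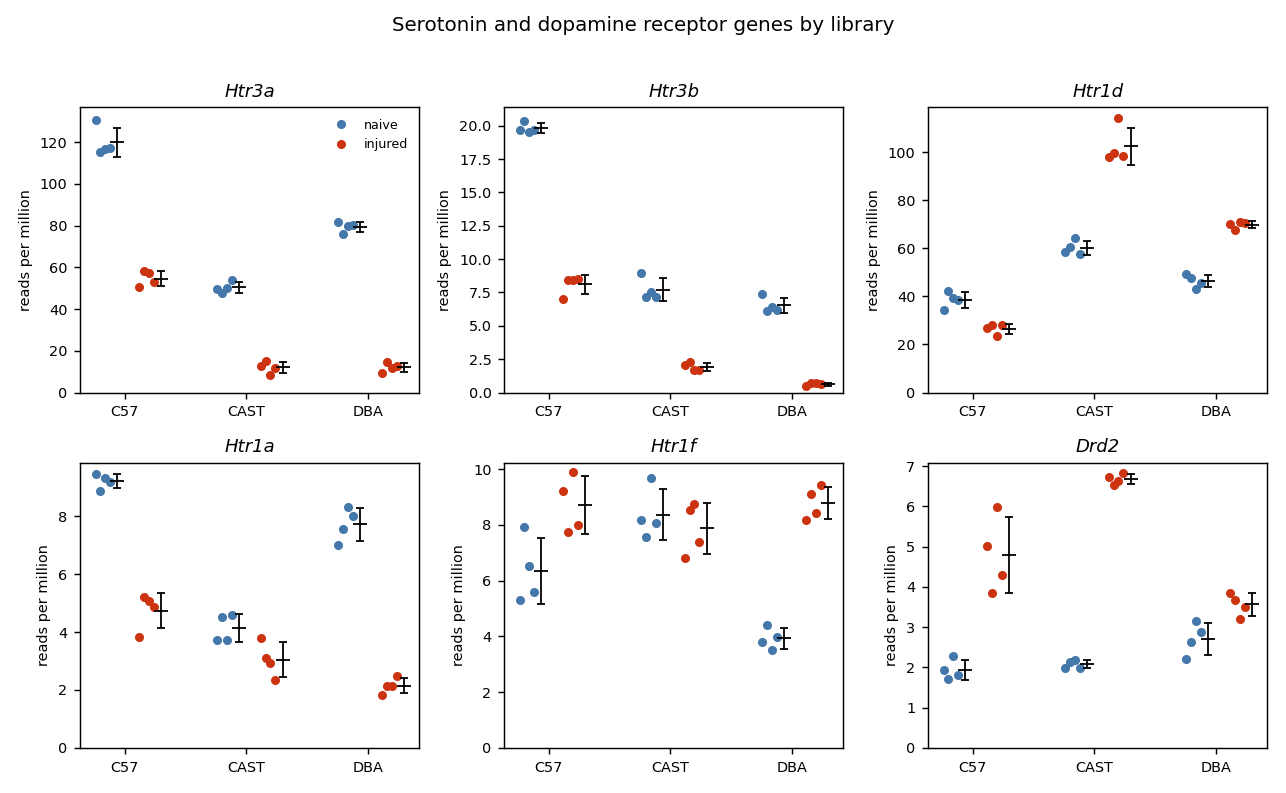
RPM (linear axes from 0) of 5 serotonin receptor genes and Drd2 in each library, blue for naive and red for injured, with mean and SD of 4 libraries in black. Htr3a and Htr3b are lower in every injured group, Htr1d is lower after crush in C57 and higher in CAST and DBA, and Drd2 is higher in every injured group.

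Among the muscarinic receptors, Chrm2 and Chrm1 fell in every strain. Chrm2, which couples to Gi and lowers cAMP, stood at 13.9, 19.7, 18.2 and 15.1 RPM in naive C57, 10.3, 10.4, 9.58 and 9.81 in naive CAST and 15.5, 13.8, 12.6 and 13.1 in naive DBA. It fell to 6.46, 7.22, 8.25 and 7.45, to 4.6, 4.43, 4.26 and 5.04 and to 3.46, 4.54, 5.17 and 5.5, which is 2.27-fold, 2.19-fold and 2.95-fold. Chrm1 couples to Gq. Chrm1 stood at 1.3, 1.84, 1.44 and 1.2 RPM in naive C57, 1.79, 1.52, 2.02 and 2.23 in naive CAST and 1.32, 1.45, 1.57 and 1.55 in naive DBA. Following crush, levels were 0.596, 1.11, 1.01 and 0.807 in C57 mice, 1.34, 1.3, 0.767 and 1.33 in CAST mice and 0.788, 0.921, 0.655 and 0.997 in DBA mice. These falls were 1.64-fold, 1.6-fold and 1.75-fold, without overlap. Chrm4 is another Gi-coupled receptor. Chrm4 stood at 8.69, 7.67, 7.82 and 8.98 RPM in naive C57, 11.9, 11.8, 9.25 and 11.3 in naive CAST and 10.4, 9.59, 8.89 and 9.49 in naive DBA. The injured libraries had 9.45, 10.4, 11.2 and 11.9 in C57 mice, 16.7, 20.7, 15.2 and 15.1 in CAST mice and 10, 9.6, 10 and 9.2 in DBA mice. It rose 1.3-fold in C57 and 1.53-fold in CAST, and in DBA the log2 difference was 0.02. Its response was larger in CAST than in DBA (0.59, adjusted p = 0.0026). Chrm3 rose 1.8-fold in DBA (adjusted p = 0.0025). It stood at 1.25, 1.27, 0.909 and 0.92 in naive C57, 0.26, 0.595, 0.358 and 0.544 in naive CAST and 0.751, 0.889, 1.2 and 1.11 in naive DBA. In injured ganglia it stood at 1.4, 1.35, 1.97 and 1.56, at 0.529, 0.263, 0.235 and 0.309 and at 1.86, 1.79, 1.3 and 2.15, so injured CAST was 4.69-fold below C57 and 5.31-fold below DBA without overlap. The responses of CAST and DBA differed by −1.09. Chrm5 had 3 to 24 reads per library and was not called in any strain.

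Of the 12 serotonin receptors coupled to G proteins, 8 fell and 2 rose in C57, 6 fell and 3 rose in CAST mice, and 7 fell and 4 rose in DBA mice. The shares that fell were 66.7%, 50% and 58.3%, against 21%, 21.8% and 24.4% of all genes, whereas the shares that rose (16.7%, 25% and 33.3%) were near the 19.7%, 26.3% and 27.2% of all genes. Htr1d, a Gi-coupled receptor of sensory nerve endings and a target of triptan drugs, was the only receptor gene called in opposite directions in 2 strains. Naive libraries held 34.2, 42.4, 39.2 and 38.4 RPM in C57 mice, 58.5, 60.4, 64.3 and 57.5 in CAST mice and 49.3, 47.7, 43.2 and 45.5 in DBA mice. After crush C57 held 26.6, 28.1, 23.5 and 28, CAST 97.9, 99.5, 114 and 98.6, and DBA 70, 67.8, 71 and 70.6. In no strain did naive and injured libraries overlap. Htr1d fell 1.45-fold in C57 (log2 difference −0.54, SE 0.06, adjusted p = 1.2e-07) and rose 1.5-fold in DBA and 1.7-fold in CAST (0.59 and 0.77, adjusted p = 1.2e-08 and 1e-10). The response of C57 differed from that of CAST by 1.30 and from that of DBA by 1.12 (SE 0.09, adjusted p = 1e-10 and 4.5e-09). Injured CAST ended at 3.86-fold the level of injured C57. Htr1d is found at 136423524 to 136444398 of chromosome 4, plus strand.

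The other receptors of the Htr1 class, all coupled to Gi, each had their own pattern. Htr1a stood at 9.46, 8.89, 9.33 and 9.19 RPM in naive C57, 3.74, 4.52, 3.72 and 4.59 in naive CAST and 7.02, 7.55, 8.33 and 8.01 in naive DBA. It fell to 3.84, 5.21, 5.06 and 4.87, to 3.81, 3.11, 2.93 and 2.36 and to 1.84, 2.14, 2.13 and 2.49, or 1.94-fold, 1.36-fold and 3.59-fold. The fall was larger in DBA than in C57 (−0.85, adjusted p = 0.0011) and than in CAST (1.36 for CAST minus DBA, adjusted p = 1e-06). The difference between CAST and C57 (0.51, adjusted p = 0.044) was lost with each of 11 single libraries left out (adjusted p up to 0.113). Scaling libraries by upper quartile or by median of ratios also lost it. Htr1f is another triptan target. Htr1f stood at 5.32, 7.91, 6.54 and 5.59 RPM in naive C57, 8.17, 7.58, 9.67 and 8.06 in naive CAST and 3.81, 4.42, 3.49 and 3.99 in naive DBA. After crush it stood at 9.21, 7.73, 9.9 and 8 in C57 mice, 6.81, 8.51, 8.76 and 7.39 in CAST mice and 8.17, 9.1, 8.42 and 9.42 in DBA mice. It rose 2.23-fold in DBA and 1.37-fold in C57, and in CAST the log2 difference was −0.09 (adjusted p = 0.55). The responses of Htr1f differed in all 3 pairs, although that between CAST and C57 (−0.55, adjusted p = 0.02) was lost without injured CAST replicate 1 or naive CAST replicate 3 (adjusted p of 0.0526 and 0.0548). Htr1b also acts on nerve endings. Htr1b stood at 8.97, 11.3, 12.1 and 11.1 RPM in naive C57, 10.5, 9.08, 7.25 and 8.95 in naive CAST and 10.8, 11.9, 10.2 and 12.2 in naive DBA. Injured libraries held 7.02, 7.72, 5.06 and 7.88 in C57 mice, 9, 8.65, 8.36 and 8.34 in CAST mice and 9.25, 8.81, 8.14 and 8.73 in DBA mice. It fell 1.57-fold in C57 and 1.29-fold in DBA, and in CAST the log2 difference was −0.05, with a difference of responses of 0.61 between CAST and C57 (adjusted p = 0.012).

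The receptors coupled to Gs, which raise cAMP, went in both directions. Htr7 stood at 14.6, 14.2, 14.7 and 13.5 RPM in naive C57, 14.1, 13.6, 14.9 and 14.4 in naive CAST and 18.8, 17, 17.1 and 18.1 in naive DBA, and fell to 6.05, 6.82, 6.52 and 6.58, to 6.08, 5.11, 4.44 and 5.75 and to 5.11, 6.61, 5.85 and 6.05. These falls of 2.2-fold, 2.66-fold and 3.01-fold had adjusted p-values of 7.4e-12, 4.8e-14 and 3.3e-15 in limma, and the response of DBA differed from that of C57 by −0.45. Htr4 stood at 11, 11.7, 11.9 and 11.2 RPM in naive C57, 13.2, 15, 15.3 and 14.4 in naive CAST and 10.4, 11.9, 9.72 and 11.8 in naive DBA. Injured ganglia held 5.1, 6.46, 6.01 and 7.01 in C57 mice, 5.94, 5.89, 3.43 and 5.33 in CAST mice and 3.58, 3.69, 3.21 and 2.66 in DBA mice. It fell 1.86-fold, 2.81-fold and 3.34-fold, further in DBA than in C57 (−0.82, adjusted p = 0.0043). The further fall in CAST than in C57 (−0.61, adjusted p = 0.028) was lost without injured C57 replicate 2 or 4, injured CAST replicate 3 or naive CAST replicate 2 or 3 (adjusted p up to 0.0682). Htr6 was the Gs-coupled receptor that rose. It stood at 0.427, 0.453, 0.746 and 0.53 RPM in naive C57, 0.884, 0.507, 0.856 and 0.82 in naive CAST and 0.489, 0.369, 0.292 and 0.483 in naive DBA. Following crush, levels were 0.913, 0.81, 0.701 and 0.816 in C57 mice, 1.43, 1.47, 1.37 and 1.24 in CAST mice and 0.657, 0.682, 0.786 and 0.581 in DBA mice. The rises were 1.5-fold, 1.79-fold and 1.66-fold, with overlapping groups in C57.

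Htr5a and Htr5b, a pair of related receptors, both fell in every strain. Htr5a stood at 4.21, 3.93, 4.29 and 4.41 RPM in naive C57, 6.78, 6.33, 6.75 and 5.51 in naive CAST and 5.5, 5.07, 4.8 and 4.58 in naive DBA. The injured libraries had 3.4, 2.97, 3.27 and 3.56 in C57 mice, 4.99, 4.45, 4.73 and 4.92 in CAST mice and 2.71, 3, 2.4 and 3.02 in DBA mice. It fell 1.28-fold, 1.33-fold and 1.79-fold, further in DBA than in C57 (−0.48, adjusted p = 0.013). Its difference between CAST and DBA (0.42, adjusted p = 0.021) was lost without naive CAST replicate 4, injured DBA replicate 3 or naive DBA replicate 1 (adjusted p up to 0.0585). Htr5b stood at 5.49, 3.33, 4.53 and 4.78 in naive C57, 1.55, 1.62, 1.04 and 1.6 in naive CAST and 6.29, 5.83, 6.29 and 6.39 in naive DBA, so naive CAST was 3.12-fold and 4.27-fold below the others. In injured ganglia it stood at 2.02, 3.38, 2.76 and 2.92 in C57 mice, 0.959, 1.35, 0.445 and 0.701 in CAST mice and 2.53, 3.26, 2.84 and 3.24 in DBA mice. Its falls were 1.64-fold, 1.68-fold and 2.09-fold, and the call in C57 was lost without injured C57 replicate 1 (adjusted p = 0.0525).

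Of the 3 Gq-coupled Htr2 receptors, Htr2c fell in every strain. Htr2c stood at 0.396, 0.381, 0.429 and 0.288 RPM in naive C57, 0.73, 1.64, 0.707 and 0.687 in naive CAST and 0.409, 0.501, 0.304 and 0.43 in naive DBA. It fell to 0.168, 0.128, 0.117 and 0.179, to 0.251, 0.143, 0.227 and 0.33 and to 0.283, 0.124, 0.281 and 0.286, and libraries held 6 to 187 reads of it. The call in DBA (−0.59, adjusted p = 0.029) was lost without injured DBA replicate 2 or naive DBA replicate 1, 2 or 4 (adjusted p up to 0.147), and the difference between CAST and DBA (−0.97, adjusted p = 0.042) with each of 10 (adjusted p up to 0.109). Htr2a, a target of psychedelic drugs, ranged from 5.76 to 8.2 in C57 and CAST and from 3.68 to 5.02 in DBA, and Htr2b from 1.36 to 2.65 in all libraries. Htr2a was called higher after crush in DBA (0.23, adjusted p = 0.032) and Htr2b in CAST (0.33, adjusted p = 0.048), and both calls were lost with single libraries left out. These were injured DBA replicates 3 and 4 and naive DBA replicate 3 for Htr2a (adjusted p up to 0.103), and injured CAST replicates 1, 2 and 3 and naive CAST replicates 2 and 4 for Htr2b (up to 0.174). Scaling libraries by upper quartile also lost both calls, and scaling by median of ratios lost that of Htr2b. Htr2b overlaps Psmd1 on the opposite strand.

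Adrenergic receptors split by subtype. The Gi-coupled alpha-2 receptors act as brakes on transmitter release, and here Adra2a rose while Adra2c fell. Adra2a stood at 5.41, 5.32, 7.19 and 5.18 RPM in naive C57, 4.3, 4.64, 4.06 and 4.28 in naive CAST and 5.96, 5.25, 5.87 and 5.03 in naive DBA. It rose to 8.27, 7.1, 8.07 and 7.15, to 7.12, 7.71, 6.21 and 6.15 and to 7.18, 7.54, 7.33 and 7.39, which is 1.32-fold, 1.57-fold and 1.33-fold. In C57 the naive replicate 3 overlapped the injured libraries. Adra2c stood at 14.1, 13.9, 14.9 and 15 in naive C57, 12.6, 11.5, 12.6 and 13.2 in naive CAST and 17, 16, 17.1 and 16.9 in naive DBA. It fell to 7.57, 9.18, 6.66 and 7.08, to 5.1, 5.03, 5.29 and 5.31 and to 7.26, 9.01, 6.97 and 7.98, which is 1.9-fold, 2.41-fold and 2.15-fold, with adjusted p-values of 3.4e-10, 5e-13 and 5.5e-12. None of the differences of response was called for Adra2a or Adra2c.

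Adra2b differed mainly by strain. Naive DBA held 1.41, 1.49, 1.6 and 1.84 RPM, against 0.291, 0.474, 0.276 and 0.455 in naive C57 and 0.327, 0.297, 0.279 and 0.391 in naive CAST, or 4.24-fold and 4.9-fold more. It fell 2.87-fold in DBA, to 0.465, 0.585, 0.59 and 0.572. In C57 the fall was 1.67-fold (adjusted p = 0.018), to 0.149, 0.281, 0.253 and 0.215. This call was lost without injured C57 replicate 1 or naive C57 replicate 2 or 4 (adjusted p up to 0.0867). Injured CAST held 0.215, 0.502, 0.34 and 0.289 (log2 difference 0.01). The difference between CAST and DBA was 1.38 (adjusted p = 0.00034), and that between DBA and C57 (−0.83, adjusted p = 0.041) was lost with each of 12 single libraries left out (adjusted p up to 0.0943).

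The alpha-1 receptors couple to Gq. Adra1a rose 1.55-fold in C57 and 1.47-fold in DBA, and Adra1b rose 1.36-fold in C57. Adra1d stood at 3.24, 3.08, 3.31 and 3.21 RPM in naive C57, 5.82, 6.46, 5.57 and 6.71 in naive CAST and 3.15, 2.61, 2.84 and 2.65 in naive DBA. After crush it stood at 1.96, 2.4, 1.58 and 2.46 in C57 mice, 4.15, 5.69, 4.67 and 4.16 in CAST mice and 2.78, 3.33, 2.71 and 3.01 in DBA mice. It fell 1.53-fold in C57 and 1.32-fold in CAST, and in DBA the log2 difference was 0.07, a difference of responses of 0.68 between DBA and C57 (adjusted p = 0.0086). Naive CAST lay above both other naive groups, 1.91-fold above C57 and 2.18-fold above DBA.

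Of the Gs-coupled beta receptors, Adrb1 fell 2.32-fold in C57 and 2.44-fold in DBA, and in CAST the log2 difference was −0.40 (adjusted p = 0.12). Adrb3, the beta receptor of fat cells, rose 3.09-fold in C57, from 0.0204 to 0.237 to a range of 0.253 to 0.466 RPM, with 2 to 63 reads per library over all groups. The summed level of 8 adipocyte markers was 3.55 to 12 in naive and 43.8 to 53 in injured C57, 1 of the 8 rose there (Car3) and 0 fell. It was 18.9 to 50.5 and 11.2 to 38.5 in naive and injured CAST and 4.21 to 26.6 and 23.5 to 27.7 in DBA, and no marker was at 0 in all libraries of a group. The part of these cells in the rise of Adrb3 was not tested.

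Of the dopamine receptors, Drd2 rose in every strain. Drd2, a Gi-coupled receptor, stood at 1.94, 1.71, 2.28 and 1.8 RPM in naive C57, 1.99, 2.14, 2.19 and 1.99 in naive CAST and 2.2, 2.63, 3.14 and 2.87 in naive DBA. It rose to 5.01, 3.84, 5.99 and 4.29, to 6.73, 6.52, 6.63 and 6.83 and to 3.86, 3.69, 3.21 and 3.5, without overlap in any strain. The rises were 2.48-fold, 3.21-fold and 1.32-fold, and that of DBA was smaller than that of C57 (−0.86, adjusted p = 0.00089) and than that of CAST (1.25 for CAST minus DBA, adjusted p = 3.4e-06). Drd3 rose 2.07-fold in DBA, from 0.66, 0.747, 0.841 and 0.676 to 1.68, 1.47, 1.56 and 1.33. Its response was larger in DBA than in C57 (1.01, adjusted p = 0.0042). In C57 it stood at 0.5, 0.546, 0.552 and 0.539 before and 0.727, 0.57, 0.272 and 0.574 after crush, and in CAST at 1.36, 1.18, 1.42 and 1.14 and 1.51, 1.67, 1.66 and 1.73. Drd4, with 4 to 42 reads per library, rose 2.82-fold in C57 and 2.29-fold in DBA. Drd5, with 2 to 21 reads, was not called in any strain.

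Of the histamine receptors, Hrh3 fell most. Hrh3, a Gi-coupled brake on transmitter release, stood at 3.64, 4.59, 3.86 and 4.22 RPM in naive C57, 3.93, 3.99, 3.92 and 3.54 in naive CAST and 5.32, 5.55, 4.65 and 5.35 in naive DBA. It fell to 1.7, 2.58, 2.14 and 2.25, to 1.69, 1.78, 1.26 and 1.3 and to 1.01, 1.58, 1.41 and 1.21, or 1.88-fold, 2.56-fold and 4-fold. The fall in DBA exceeded that in C57 (−1.04, adjusted p = 0.00039) and that in CAST (0.62 for CAST minus DBA, adjusted p = 0.022). The second call was lost without injured CAST replicate 1, injured CAST replicate 2 or injured DBA replicate 1 (adjusted p up to 0.0647). Hrh1 is the Gq-coupled receptor blocked by antihistamines. Hrh1 stood at 3.89, 3.83, 3.24 and 3.77 RPM in naive C57, 6.2, 6.44, 6.17 and 6.03 in naive CAST and 5.23, 5.4, 5.15 and 5.13 in naive DBA. Injured libraries held 3.47, 3.07, 3.19 and 3.19 in C57 mice, 5.31, 5.14, 5.14 and 5.72 in CAST mice and 3.76, 3.7, 3.76 and 3.34 in DBA mice. It fell 1.44-fold in DBA, 1.17-fold in CAST and 1.14-fold in C57, where the call (adjusted p = 0.042) was lost with each of 6 single libraries left out (adjusted p up to 0.109). Its difference between DBA and C57 (−0.33, adjusted p = 0.038) was lost with each of 9 (adjusted p up to 0.0938). Hrh2 was not called in any strain, and Hrh4 had 0 to 8 reads per library.

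Whether the response to crush differed between strains was tested directly. Between DBA and C57, 19 of 49 receptor genes differed (38.8%), where 8.28% of all genes did. In DBA the value was lower for 15 (4.12% of all genes) and higher for 4 (4.16%). Between CAST and DBA 14 differed (13.3% of all genes), and in CAST the value was higher for 10 (7.14%) and lower for 4 (6.16%). Between CAST and C57 10 differed (11.1% of all genes), and in CAST the value was lower for 7 (4.57%) and higher for 3 (6.53%). In at least 1 of the 3 tests 24 genes were called, or 49% of the receptor genes, against 20.8% of all genes. These tests share groups. The plot of differences of response shows that those between DBA and C57 were called negative for, among others, Chrna3, Chrnb4, Chrna6, Chrnb3, Htr3a, Htr3b, Hrh3, Htr1a, Htr4 and Drd2, and positive for Htr1d, Htr1f, Adra1d and Drd3.

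**Figure D4:**
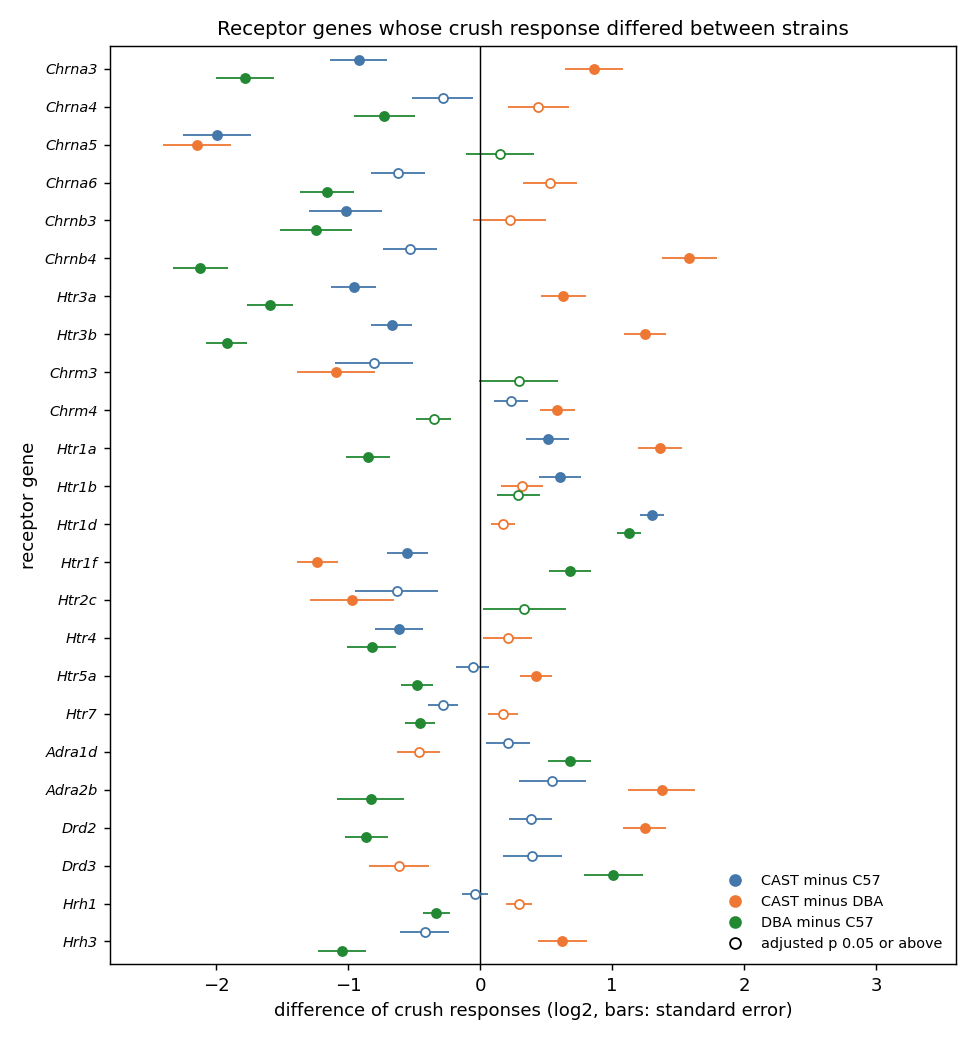
Difference of crush responses between 2 strains (log2, x axis, with standard error) for the 24 receptor genes called in at least 1 of 3 tests. Filled points have an adjusted p under 0.05 in limma. DBA minus C57 (green) is lowest for Chrnb4, at −2.12, and CAST minus DBA (orange) is lowest for Chrna5, at −2.15.

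Before injury, receptor genes already differed between strains. In at least 1 of the 3 naive comparisons 43 of the 49 were called, where 61.3% of all genes were. Between naive CAST and naive C57, 35 were called (46.9% of all genes), 21 of them higher in CAST (25.6%) and 14 lower (21.4%). Naive CAST and naive DBA differed in 36 (46.8%), of which 19 were higher in CAST (24.6%) and 17 lower (22.2%). Naive DBA and naive C57 differed in 21 (23.2%), of which 12 were higher in DBA (12.4%) and 9 lower (10.8%). The 6 largest differences were, between CAST and C57, those of Chrna3, Chrna5, Chrnb4, Chrna1, Htr5b and Chrna4, between CAST and DBA those of Chrna3, Chrnb4, Chrna7, Chrna5, Htr5b and Adra2b, and between DBA and C57 those of Chrnb3, Adra2b, Htr3b, Chrna6, Chrna4 and Chrna7. Injured CAST and injured C57 differed in 31 (50.5% of all genes), of which 18 were higher in CAST (29.7%) and 13 lower (20.8%). Injured CAST and injured DBA differed in 29 (49.1%), 19 higher in CAST (27.1%) and 10 lower (22%). Injured DBA and injured C57 also differed in 29 (34%), 12 higher in DBA (18.8%) and 17 lower (15.3%).

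Genes that make, move or break down the transmitters of these receptors were read beside them. Slc6a4, the serotonin transporter, rose from 0.219, 0.237, 0.307 and 0.214 to 38.7, 34.6, 35.2 and 30.4 RPM in C57. In CAST it rose from 0.759, 0.56, 0.368 and 0.324 to 46, 56.6, 54.3 and 40.3, and in DBA from 0.603, 0.397, 0.549 and 0.395 to 61.6, 61.6, 59.5 and 60.9. By the means these rises were 142-fold, 98-fold and 125-fold. Of 25 tested genes of monoamine synthesis, transport and breakdown, 8, 9 and 7 rose and 5, 7 and 6 fell in C57, CAST and DBA, with 7 higher and 4 lower in all 3. The rises are 32%, 36% and 28% of the list where 19.7%, 26.3% and 27.2% of all genes rose, so that the share in DBA was near that of all genes. The falls (20%, 28% and 24%) were near the 21%, 21.8% and 24.4% of all genes, and the 4 lower in all 3 (16%) near 14.4%, while the 7 higher in all 3 are 28% against 14.4%. Hdc, which makes histamine, rose 2.93-fold, 3.04-fold and 4.94-fold, and Dbh, which makes noradrenaline from dopamine, rose 11.1-fold, 7.22-fold and 10.4-fold to levels of 0.601 to 1.11. The noradrenaline transporter Slc6a2 rose 2.39-fold, 1.88-fold and 2.58-fold. Th, the first enzyme of dopamine synthesis and a marker of a class of touch neurons in these ganglia, fell 1.69-fold, 2.05-fold and 3.66-fold. Dbh and Slc6a2 are also among the sympathetic markers described above, and Hdc among 7 mast cell markers, of which 5 were higher after crush in DBA, 1 in CAST and 1 in C57, with 1 lower in C57.

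Chat, which makes acetylcholine, rose mainly in DBA. It went from 0.0341, 0.0284, 0.0467 and 0.0264 to 4.3, 4.27, 4.78 and 4.85 RPM there, 134-fold by the means, and 3.2-fold and 2.67-fold in C57 and CAST to at most 0.214 and 0.776. The 4 naive DBA libraries held 13 reads of Chat in all and the injured ones 1978. The response of DBA exceeded that of C57 (4.24) and that of CAST (−4.08 for CAST minus DBA, both log2), and both differences were called. Of 23 tested genes of acetylcholine synthesis, transport, breakdown and receptor assembly, 5, 7 and 9 rose and 9, 10 and 10 fell in C57, CAST and DBA, with 4 higher and 8 lower in all 3. The falls are 39.1%, 43.5% and 43.5% of the list, against 21%, 21.8% and 24.4% of all genes. The rises in C57 and CAST (21.7% and 30.4%) were near the 19.7% and 26.3% of all genes, and that in DBA was 39.1% against 27.2%. Those lower in all 3 are 34.8% and those higher 17.4%, where all genes gave 14.4% in each direction. Ache, the enzyme that breaks down acetylcholine, fell 1.79-fold, 1.79-fold and 2.11-fold, and Colq, which anchors it, fell 1.71-fold, 1.65-fold and 2.72-fold. Tmem35, a chaperone that lets Chrna7 channels assemble, fell 1.94-fold, 2.39-fold and 2.13-fold. Ly6h, which holds nicotinic receptors back from the surface, fell 2.16-fold, 2.91-fold and 3.83-fold, whereas its relative Ly6e rose 1.99-fold, 6.45-fold and 2.95-fold.

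**Figure D5:**
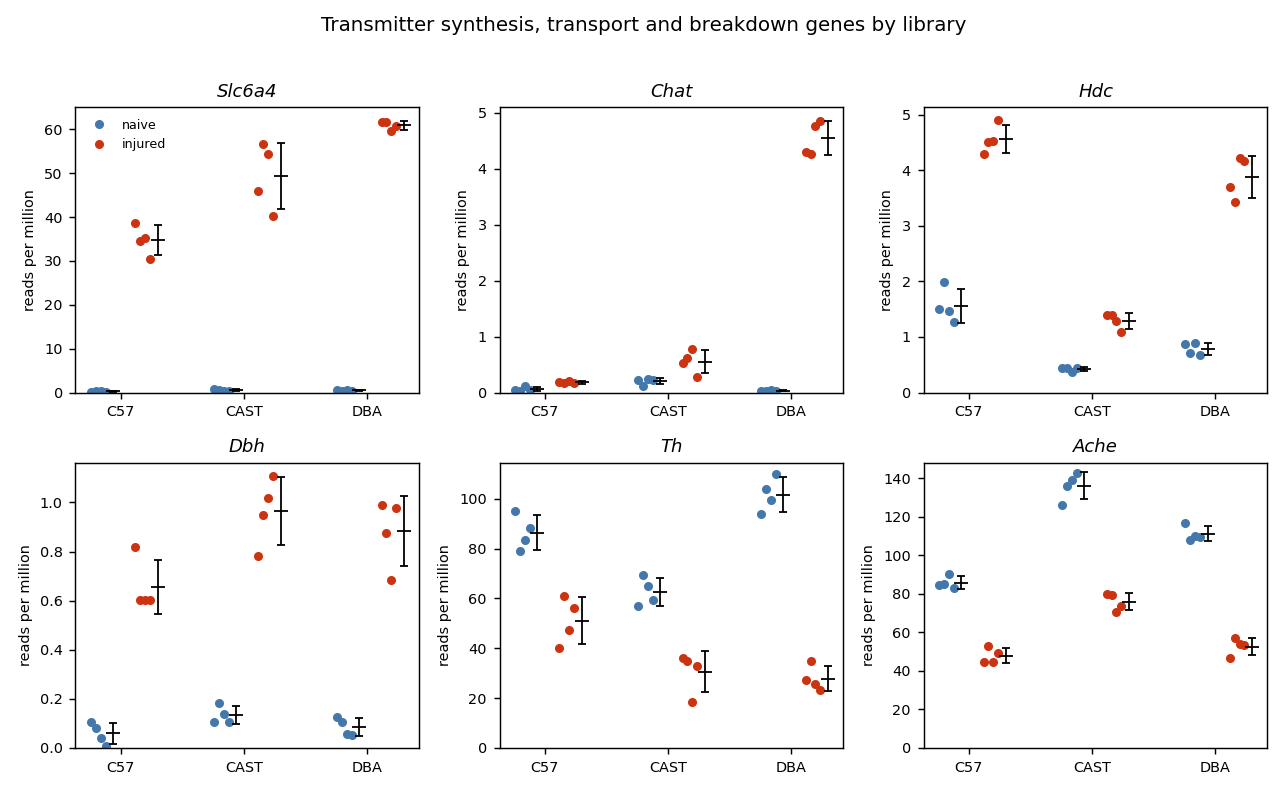
RPM (linear axes from 0) of 6 genes of transmitter transport, synthesis and breakdown in each library, blue for naive and red for injured, with mean and SD of 4 libraries in black. Slc6a4 stands at 30.4 to 61.6 in all injured and at most 0.759 in all naive libraries, and Chat above 4 only in injured DBA.

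Downstream of the receptors, 47 genes of G proteins, receptor kinases, arrestins and effectors were tested. In C57, CAST and DBA 11, 13 and 13 rose and 24, 26 and 29 fell, and in all 3 strains 10 rose and 22 fell. Of the list 51.1%, 55.3% and 61.7% thus fell, where 21%, 21.8% and 24.4% of all genes did. The shares that rose, 23.4%, 27.7% and 27.7%, were near those of all genes (19.7%, 26.3% and 27.2%). In all 3 strains 46.8% fell and 21.3% rose, against 14.4% of all genes each way. Plcb3, a phospholipase activated by Gq, fell 1.8-fold, 2.46-fold and 2.64-fold, and Prkar2b, a regulatory subunit of protein kinase A, fell 1.96-fold, 2.18-fold and 2.75-fold. Rgs8, which shortens Gi and Go signalling, fell 1.86-fold, 2.59-fold and 4.18-fold. Gna15 and Plcb2, a G protein and a phospholipase of blood cells, rose 2.96-fold, 4.15-fold and 2.9-fold and 2.36-fold, 3.42-fold and 2.7-fold, beside the rise of all 9 macrophage markers.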

How the data were processed

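RNA of 24 libraries of mouse dorsal root ganglia was analysed. Total RNA was extracted with Trizol and standard Illumina libraries were made, per the labels' protocols. Reads were aligned with STAR 2.3.0 to mm10, per the submitters' processing notes. Which tool counted reads, with which annotation and whether by strand, is not given in the sources used here. mm10 is the assembly of a C57BL/6 mouse, and what this does to strain differences was not tested. The authors deposited FPKM (fragments per kilobase of length and per 1000000 reads) for 38215 genes.

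Low values fell on whole multiples of 1 read, and whole reads were recovered within 0.002 reads for 34299 of the 34314 genes above 0 in at least 5 libraries. The length term lay within 2 bases of the genomic transcript span, introns included, for 81.1% of 14980 genes with 1 transcript in GENCODE M21. For genes with several transcripts it came closest to the sum of their spans (within 5 bases for 40.0%, against 5.8% for the gene span), so FPKM of different genes cannot be compared. Reads were divided by the library total (51.39 to 145.48 M reads) and tested as log2(RPM + 0.1), with RPM the reads per 1000000. Genes with at least 10 reads in at least 4 libraries were kept (27276, with 10939 removed). Group means of all 24 libraries were fitted with limma 3.58.1 and statmod 1.5.0 in R 4.3.3 (trend, robust). P-values are two-sided, adjusted by Benjamini-Hochberg over all genes within each of 12 contrasts. They rest on the spread of each gene between libraries labelled as biological replicates, pooled over the 6 groups of 4 and moderated over all genes. Folds are ratios of mean RPM, log2 differences and SE are from limma. On data simulated for the crush response of C57 in 27273 genes, 50 of 50 genes were recovered at each fold of 0.25, 0.5, 2 and 4, with 15 false calls. The changed genes were drawn above a minimum level, and all genes had the same simulated dispersion. Recovery of genes with few reads, such as Chrna9, was therefore not tested. Replicates of a group differed by more than counting noise (chi-square per gene of at least 6.95). Python 3.11.15 was used for tables.

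The receptor genes and all lists were chosen with earlier results of these data known. Values per library were given by rule for genes called in 1 direction in all 3 crush contrasts or in a difference of responses and for the 6 largest differences of each naive pair, and up to 5 genes per pathway list with the largest changes shared by the strains. Ache and some receptor genes outside the rule were added after their values were seen. Alternatives were other scales, pseudocounts, filters and scalings, voom, fitting only the compared groups, a replicate block and leaving out libraries. Values of some single genes are not reported here, though the counts include them.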

Additional observations from a re-analysis of the deposited data

Results flagged for a closer look

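The response to crush differed between strains, by limma's test of the difference itself, in 43 pairings of a receptor gene with a pair of strains. For DBA minus C57 the log2 difference of responses was positive for Htr1d (1.12), Drd3 (1.01), Adra1d (0.68) and Htr1f (0.68). It was negative for Chrnb4 (−2.12), Htr3b (−1.92), Chrna3 (−1.78), Htr3a (−1.59), Chrnb3 (−1.24), Chrna6 (−1.16), Hrh3 (−1.04), Drd2 (−0.86), Htr1a (−0.85), Adra2b (−0.83), Htr4 (−0.82), Chrna4 (−0.72), Htr5a (−0.48), Htr7 (−0.45) and Hrh1 (−0.33). For CAST minus DBA the log2 difference of responses was positive for Chrnb4 (1.59), Adra2b (1.38), Htr1a (1.36), Drd2 (1.25), Htr3b (1.25), Chrna3 (0.86), Htr3a (0.63), Hrh3 (0.62), Chrm4 (0.59) and Htr5a (0.42). It was negative for Chrna5 (−2.15), Htr1f (−1.23), Chrm3 (−1.09) and Htr2c (−0.97). For CAST minus C57 the log2 difference of responses was positive for Htr1d (1.30), Htr1b (0.61) and Htr1a (0.51). It was negative for Chrna5 (−1.99), Chrnb3 (−1.02), Htr3a (−0.96), Chrna3 (−0.92), Htr3b (−0.67), Htr4 (−0.61) and Htr1f (−0.55). Differences that were lost with single libraries left out are named as such where the genes are described.

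In 20 of 294 groups of 4 libraries, 1 library lay far from the other 3 by Dixon's criterion, which chance gives in about 1 group in 20. Among the nicotinic subunits these were Chrna5 in naive C57 replicate 1 (0.167 RPM), Chrna6 in naive DBA replicate 1 (121), Chrnb3 in naive C57 replicate 3 (11.4), Chrna4 in injured DBA replicate 2 (0.514) and Chrnb2 in injured C57 replicate 3 (88.4). Among the serotonin receptors they were Htr3a in naive C57 replicate 1 (131), Htr3b in naive C57 replicate 2 (20.4) and injured C57 replicate 1 (7.04), Htr1d in injured CAST replicate 3 (114), Htr5b in naive CAST replicate 3 (1.04) and Htr6 in naive CAST replicate 2 (0.507). Htr2c stood apart both in naive CAST replicate 2, where 1.64 compares with 0.687 to 0.73 in the others, and in injured DBA replicate 2 (0.124). Among the other receptors they were Adra1a in injured C57 replicate 1 (1.94), Adra2a in naive C57 replicate 3 (7.19), Adra2b in injured DBA replicate 1 (0.465), Adra2c in naive DBA replicate 2 (16), Chrm1 in injured CAST replicate 3 (0.767), Hrh1 in injured DBA replicate 4 (3.34) and Hrh3 in naive CAST replicate 4 (3.54).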

How the results depend on the processing

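Of 329 calls of receptor genes in 12 contrasts, 257 were made under every alternative in which their gene was tested. The other 72 were lost or changed sign under at least 1, among them 47 lost when a single library was left out. The stricter filter (at least 50 reads in at least 4 libraries) kept the genes of 314 of the 329 calls. The count of differing responses between CAST and C57 rose from 10 to 17 on the scale of log2(FPKM + 1). Over all genes, the calls of that contrast were 1781 higher and 1246 lower in the main fit and 2181 and 1409 on that scale. On that scale 7 values changed sign: the crush responses of Htr2c in C57 and DBA (0.00 for both), the differences of Htr3b for CAST minus C57 (0.15) and DBA minus C57 (0.13), those of Chrna3 (−0.18) and Chrnb4 (−0.16) for CAST minus DBA, and that of Chrna4 for DBA minus C57 (0.029). The sign changes of Htr3b were called in the new direction (adjusted p = 4.67e-05 and 0.000257 in limma). Those of Chrna3 and Chrnb4 were not called (adjusted p = 0.345 and 0.219). Of the 52 genes 43 had a median FPKM under 1, so the added 1 exceeds most of their values by construction.

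Leaving out 1 library at a time, 32 to 35, 30 to 33 and 36 to 39 genes were called for the crush responses of C57, CAST and DBA. The differences of response gave 8 to 12 (CAST and C57), 12 to 16 (CAST and DBA) and 16 to 18 (DBA and C57). Naive pairs gave 29 to 34, 34 to 36 and 19 to 22, and injured pairs 29 to 32, 25 to 30 and 25 to 30, in the same order. With the 3 named libraries left out together, an alternative chosen after seeing the data, the differences of response gave 8, 18 and 18. Shares of all genes were not computed for these fits with libraries left out.

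The labels do not say that equal replicate numbers pair naive with injured libraries of a strain, and no such pairing was seen. Over 12 same-numbered pairs of libraries the correlation of deviations from the group means ran from −0.12 to 0.10. Such correlations cannot exclude a small effect shared by equal numbers. With the replicate number as a block, 36, 33 and 38 receptor genes were called for the crush responses and 11, 14 and 19 for the differences of response. Over all genes with the block, 5290, 6992 and 7323 were higher and 5597, 5794 and 6531 lower for the crush responses. For the differences of response 1646, 1814 and 1036 were higher and 1156, 1556 and 995 lower. Their order was CAST minus C57, CAST minus DBA and DBA minus C57. Genes with few reads, such as Chrna9 (0 to 18 per library), are limited by depth.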

Other observations

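Among the 18 receptor genes that fell in all 3 strains, the lowest value of an injured group often came from the same library. Injured C57 replicate 1 was lowest for 13 of the 18, injured CAST replicate 3 for 11 and injured DBA replicate 1 for 11. In the naive groups no library was lowest for more than 7. These genes share their libraries, and no test was made. The same count was not made over all genes, so whether this is particular to receptor genes is not known.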
